A study of Mus musculus with 6 samples.

Results

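The genes described here are 10 enzymes and helper proteins that turn arachidonic acid into leukotrienes and prostaglandins: Pla2g4a, Alox5, Alox5ap, Lta4h, Ltc4s, Ptgs1, Ptgs2, Ptges, Tbxas1 and Hpgds. They were taken by gene name from a table of 54532 genes, and all 10 passed the filter on low counts, as did 12491 genes in all. RNA was sequenced from RAW264.7 cells, a mouse macrophage-like line, grown in DMEM with 5% FBS. The 3 control libraries carry the genotype WT and the other 3, called the labelled libraries here, carry ERMAP Knockdown and shRNA. The study asked which genes differ after knockdown of ERMAP, erythroid membrane-associated protein. An ERMAP-shRNA lentivirus stands in the treatment text of all 6 samples, controls included, and a control virus is named for none. Separate cultures are not named either, so the p-values below measure the spread among libraries of a group, and that spread may be technical.

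Eicosanoids are short-lived signalling lipids made on demand. Cytosolic phospholipase A2 (Pla2g4a) frees arachidonic acid from membranes, and the acid then enters a leukotriene or a prostanoid branch. In the leukotriene branch, 5-lipoxygenase (Alox5) works with its activating protein FLAP (Alox5ap) to make leukotriene A4, which Lta4h turns into leukotriene B4, an attractant of neutrophils, and Ltc4s into the cysteinyl leukotriene C4. In the prostanoid branch, the cyclooxygenases Ptgs1 (COX-1, mostly constitutive) and Ptgs2 (COX-2, mostly inducible) make prostaglandin H2, which Ptges turns into prostaglandin E2, Hpgds into prostaglandin D2 and Tbxas1 into thromboxane A2. Macrophages make lipids of both branches.

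Ermap itself was not lower in the labelled libraries. It had 12, 12 and 3 counts in control libraries 1, 2 and 3 and 10, 21 and 14 in labelled libraries 1, 2 and 3 (log2 fold change 0.81, SE 0.52, edgeR adjusted p = 0.929). That value was 0.41 without control 3 and 0.52 without labelled library 2, and in limma with library weights Ermap was called higher (1.66, adjusted p = 0.0382), opposite to the label. Each direction below is therefore that of the label. Library totals ran from 13447021 to 16602734 counts. Control 1 stood apart: mitochondrial genes took 3.69% of its counts and 1.72% to 2.18% elsewhere, and its difference from the other 2 controls had a Spearman rho of -0.815 with transcript GC content, a description over 9510 protein-coding genes of the same libraries. By the same measure within their groups, controls 2 and 3 had 0.761 and 0.675. Labelled libraries 1, 2 and 3 had 0.295, -0.541 and 0.387, so a GC trend was not limited to control 1. Of 10 macrophage markers 9 passed the filter and summed to 7351 to 7628 CPM (TMM-scaled read counts relative to the library total) in control and 7555 to 7705 CPM in the labelled libraries. Fcgr1 was the marker called by edgeR, and it was higher (log2 fold change 1.64, edgeR adjusted p = 0.000116), and Mrc1 was near 0. Without a call, Cd14 and Csf1r were higher in each labelled library than in each control, and Lyz2 and Itgam were lower. Groups separate in CPM were seen for 14.2% of all tested genes. The mast cell list, 8 of 8 markers, was at 0 counts throughout. Also at 0 in every library were 5 of 8 platelet, 6 of 8 neutrophil, 4 of 6 eosinophil, 4 of 6 T cell, 3 of 5 B cell, 4 of 5 fibroblast, 4 of 5 epithelial and 4 of 6 erythroid markers. The T cell list, mostly Lck, summed to 1.85 to 2.35 and 3.19 to 5.26 CPM in the 2 groups, the platelet list, mostly Gp1ba, to 1.52 to 2.51 and 1.06 to 2.32 CPM, and each remaining list to at most 0.415 CPM. The part of these differences in the results was not tested.

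Per gene length, Alox5, Alox5ap and Pla2g4a were the most abundant of the 10, and the prostaglandin E2 and thromboxane synthases the least. In control (mean ± SD, n = 3) the deposited FPKM was 62.4 ± 2.09 for Alox5, 53.5 ± 11.3 for Alox5ap, 34.4 ± 7.44 for Pla2g4a, 12.05 ± 0.827 for Lta4h and 7.56 ± 1.97 for Hpgds. It was 4.18 ± 0.447 for Ptgs1, 3.48 ± 1.15 for Ltc4s, 0.763 ± 0.386 for Ptgs2, 0.238 ± 0.0559 for Ptges and 0.193 ± 0.0547 for Tbxas1. Among neighbours in this order, the library values of Alox5 and Alox5ap overlapped in both groups, as did those of Ptges and Tbxas1. Alox5ap and Pla2g4a overlapped in control but not in the labelled libraries, and Ptgs1 and Ltc4s likewise. The other neighbouring pairs were separate in both groups. Among the 12491 tested genes, mean FPKM placed Alox5 at rank 981 and Ptges at rank 12175.

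**Figure D1:**
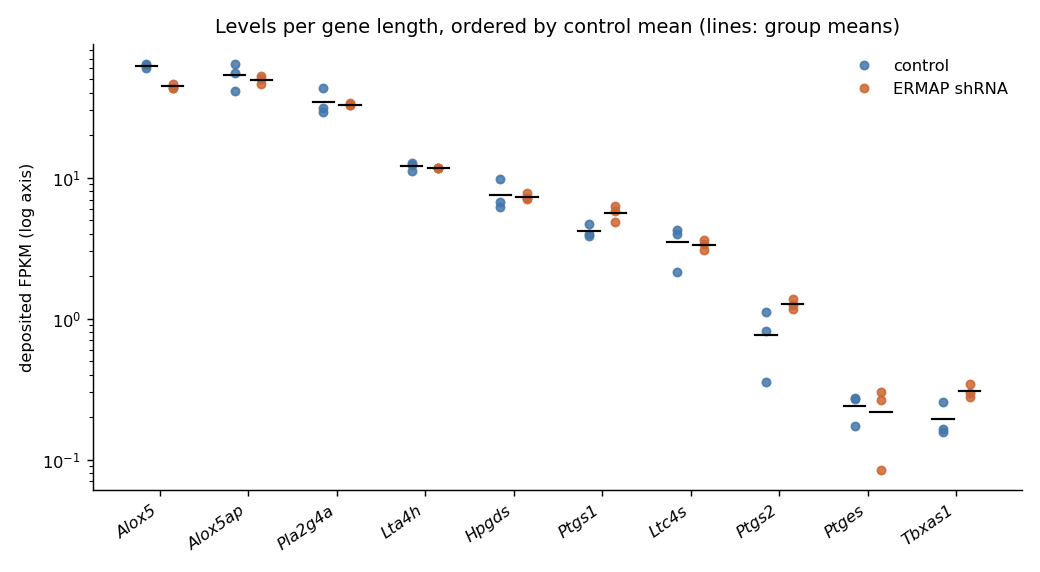
Deposited FPKM (log axis) of the 10 genes, ordered by control mean. Points are single libraries, blue for control and orange for the labelled libraries, and lines are group means. Alox5 leads in control at a mean of 62.4 and lies below Alox5ap in the labelled libraries, at 44.4 against 49.5.

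Between the groups, Alox5 was the single member that passed the test, and it fell. With p adjusted over all tested genes, edgeR's quasi-likelihood test called 1 of the 10 lower and 0 higher, where 1.14% of all tested genes were called (1.01% higher and 0.136% lower). DESeq2 called 1 lower and 0 higher, with 2.19% of all genes called (1.62% higher, 0.568% lower). An unadjusted p under 0.05 was reached by 3 of the 10, Ptgs1 and Tbxas1 higher and Alox5 lower, and by 6.76% of all tested genes (3.71% higher, 3.04% lower). The CPM of the groups did not overlap for 4 of the 10, namely Ptgs1, Ptgs2 and Tbxas1, higher, and Alox5, lower, and for 14.2% of all tested genes (7.74% higher, 6.47% lower). Without control 1, edgeR called 2 of the 10 lower, Alox5 and Alox5ap, and 0 higher, with 4.86% of all genes called (2.67% higher, 2.19% lower). With offsets for GC content it called 1 lower, Alox5, and 0 higher, with 3.05% of all genes called (2.03% higher, 1.02% lower). The median log2 fold change was -0.058 over the 10 and -0.0073 over all tested genes. In bulk RNA such as this, fewer cells that express a gene and less of its RNA per cell cannot be told apart.

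**Figure D2:**
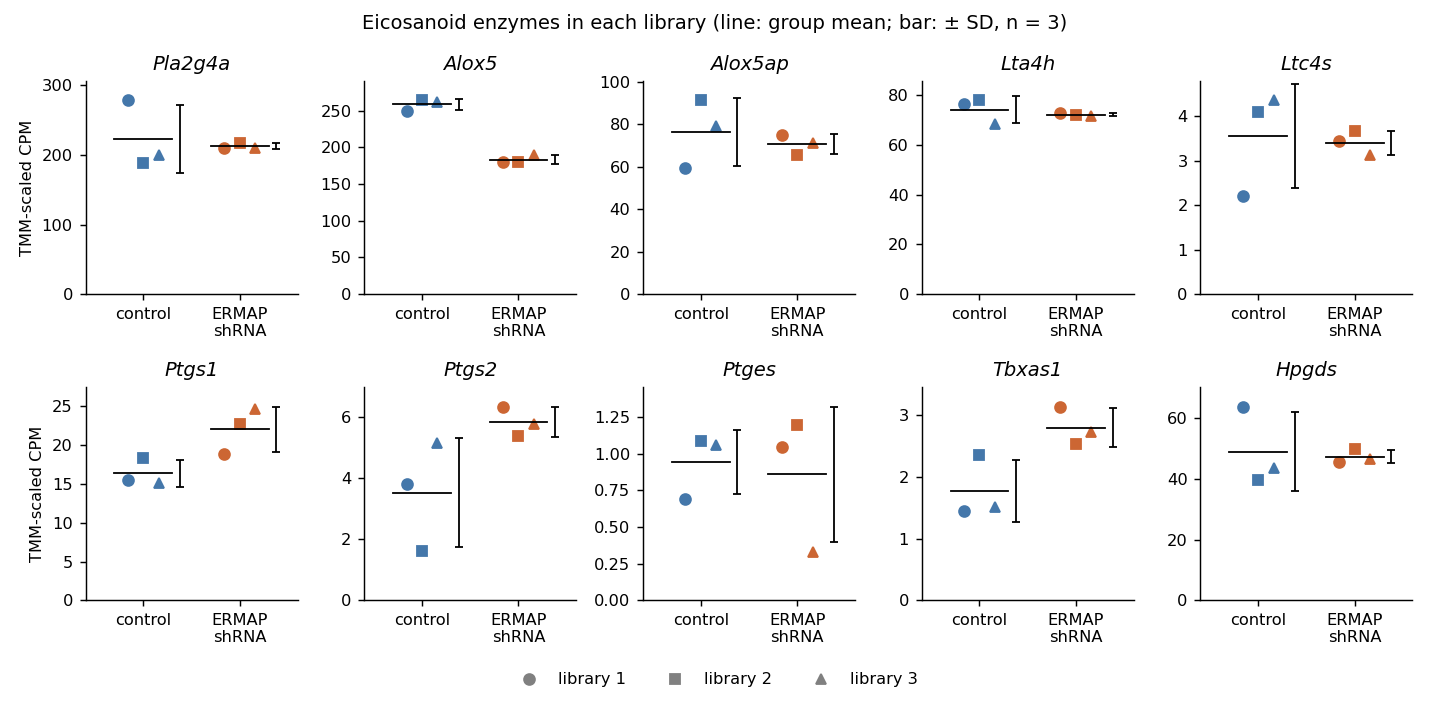
TMM-scaled CPM of each gene in each library, with every vertical axis starting at 0. Symbols give the library's number, horizontal lines the group means and bars ± SD (n = 3). The groups separate for Alox5, Ptgs1, Ptgs2 and Tbxas1, and control 1 (blue circle) is the highest control for Pla2g4a and Hpgds and the lowest for Alox5, Alox5ap, Ltc4s, Ptges and Tbxas1.

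Pla2g4a (ENSMUSG00000056220, minus strand, chr1:149829618-149961290 in mm10), the phospholipase at the head of the pathway, did not pass the test. Control libraries 1, 2 and 3 stood at 278.1, 188.3 and 200.1 CPM, and labelled libraries 1, 2 and 3 at 210.2, 217.3 and 209.4 CPM. Control 1 was above all other libraries, and the labelled libraries lay between it and the other 2 controls. The log2 fold change was -0.065 (95% interval -0.41 to 0.28, edgeR adjusted p = 0.957), and 0.12 without control 1 (edgeR adjusted p = 0.352). Its transcripts have a GC content of 44.3%, and control 1 exceeded the other controls by 0.52 on the log2 scale. Ptgs2 lies 138.7 kb from Pla2g4a on chromosome 1, on the opposite strand, and its values are given with the cyclooxygenases.

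Alox5 (ENSMUSG00000025701, minus strand, chr6:116410077-116461178), which encodes 5-lipoxygenase, fell by 29.2%. Its control libraries held 249.7, 264.1 and 262.3 CPM and its labelled libraries 179.8, 179.8 and 190.2 CPM. Values within each group lay close together, and the lowest control exceeded the highest labelled library. Mean levels were 258.7 ± 7.83 and 183.3 ± 6.03 CPM (SD, n = 3), a log2 fold change of -0.50 (SE 0.083, 95% interval -0.69 to -0.30, edgeR adjusted p = 0.0341). Control 1 differed from the other controls by -0.076 on the log2 scale. On leaving out each library in turn the value stayed at -0.53 to -0.48. The call held without control 1 (edgeR adjusted p = 2.70e-06) and was lost without control 2, control 3 or any of the labelled libraries (edgeR adjusted p = 0.113 to 0.318).

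The Alox5 promoter is shown because this gene carries the call. The window holds the 250 bases before the RefSeq start (GRCm38.p6, minus strand, chr6:116461179-116461428, 5′ to 3′). Capitals mark the GC box letters GGGCGG, the match found among 9 motifs searched on both strands.
Alox5: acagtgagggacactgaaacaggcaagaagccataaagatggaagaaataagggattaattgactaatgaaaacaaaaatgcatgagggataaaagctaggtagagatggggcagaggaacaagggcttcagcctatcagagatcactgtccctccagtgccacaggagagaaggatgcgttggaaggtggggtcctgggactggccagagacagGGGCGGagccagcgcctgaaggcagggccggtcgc
The match lies 35 to 30 bases before the start, and 32.7% of 32851 RefSeq windows of this length hold these letters.

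Alox5ap (ENSMUSG00000060063, plus strand, chr5:149264767-149288153), the FLAP protein that presents arachidonic acid to 5-lipoxygenase, did not pass the test. The controls held 59.5, 91.3 and 79.03 CPM and the labelled libraries 75.1, 65.6 and 71.2 CPM. Control 1 was the lowest of the 6 libraries and control 2 the highest, so the groups overlapped. The fitted log2 fold change was -0.12 (95% interval -0.48 to 0.25, edgeR adjusted p = 0.948). Without control 1 it was -0.28 and passed (edgeR adjusted p = 0.0484), and without control 2 it was 0.024. An antisense gene, Gm19719, overlaps Alox5ap and had 97 counts in all against 6634. Within a library, the FPKM of Alox5 divided by that of Alox5ap was 1.45, 1.0 and 1.15 in the controls and 0.828, 0.948 and 0.924 in the labelled libraries. These ratios did not overlap between the groups, by a small margin between control 2 and labelled library 2, and they were not tested. Alox5 alone was already lower in each labelled library than in each control, so the ratio is not separate evidence.

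Neither member that uses leukotriene A4, Lta4h or Ltc4s, passed the test. Mgst2, which can also make leukotriene C4 and is not a member, was called lower and is described with the wider pathway. Lta4h (ENSMUSG00000015889, plus strand, chr10:93453411-93484875) held 76.6, 77.9 and 68.2 CPM in the controls and 72.6, 72.1 and 71.8 CPM in the labelled libraries. All 3 labelled libraries of Lta4h lay within the range of its controls, with a log2 fold change of -0.040 (95% interval -0.26 to 0.18, edgeR adjusted p = 0.959). Ltc4s (ENSMUSG00000020377, minus strand, chr11:50236461-50238616) held 2.21, 4.09 and 4.36 CPM in the controls and 3.44, 3.66 and 3.13 CPM in the labelled libraries. Control 1 was the lowest library for Ltc4s, and its GC content, 60.6%, is the highest of the 10. Its log2 fold change was -0.065 (95% interval -0.72 to 0.59, edgeR adjusted p = 0.974), and -0.32 without control 1 (edgeR adjusted p = 0.549). The antisense gene Gm26542 shares 1664 bases with Ltc4s and had 92 counts in all against 314, and without a stated strand setting their reads cannot be told apart. Per gene length, Lta4h was 5.75, 3.16 and 2.601 times Ltc4s in the controls and 3.51, 3.27 and 3.81 times in the labelled libraries, with overlap.

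**Figure D3:**
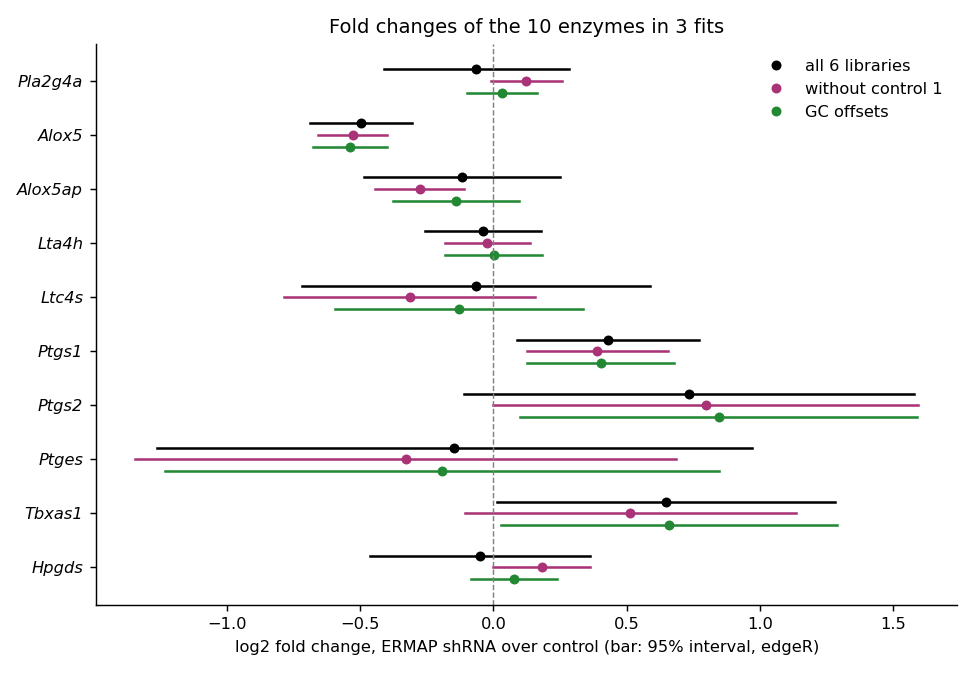
Log2 fold change of each gene, labelled libraries over controls, with its 95% interval, in the edgeR fit on 6 libraries (black), without control 1 (purple) and with GC offsets (green). Alox5 lies below 0 in all 3 fits, at -0.50, -0.53 and -0.54, while Pla2g4a, Hpgds and, by 0.00016, Lta4h change sign between fits.

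Both cyclooxygenase genes were higher in each labelled library than in each control, and neither passed the test over all genes. Ptgs1 (ENSMUSG00000047250, plus strand, chr2:36230426-36252272) held 15.6, 18.4 and 15.2 CPM in the controls and 18.9, 22.7 and 24.6 CPM in the labelled libraries. Labelled library 1 came close to control 2, so the margin between the groups was small. The change of Ptgs1 on the log2 scale was 0.43 (SE 0.15, 95% interval 0.089 to 0.77, unadjusted p = 0.0197, edgeR adjusted p = 0.477), and 0.35 to 0.53 on leaving out each library in turn. In the limma fit with library weights, where control 1 weighed 0.0903, Ptgs1 passed (adjusted p = 0.0275). Its FPKM was 4.18 in control and 5.65 in the labelled libraries on average. The ratio of Alox5 to Ptgs1 within a library was 15.2, 13.6 and 16.3 in the controls against 8.996, 7.495 and 7.31, and was not tested. These ratios could not overlap, since Alox5 was lower and Ptgs1 higher in each labelled library than in each control.

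Ptgs2 (ENSMUSG00000032487, plus strand, chr1:150100031-150108227) held 3.804, 1.63 and 5.15 CPM in the controls and 6.35, 5.39 and 5.79 CPM in the labelled libraries, from 55, 27 and 78 and 85, 81 and 87 counts. The controls were scattered, and the labelled libraries lay close to each other. Ptgs2 had a log2 fold change of 0.73 (SE 0.36, 95% interval -0.11 to 1.58, edgeR adjusted p = 0.846), 0.38 without control 2 and 1.12 without control 3. In limma on log2(FPKM + 1), where the added 1 shrinks changes of low genes, Ptgs2 had 0.39. Per gene length, Ptgs1 was 4.82, 13.3 and 3.48 times Ptgs2 in the controls and 3.51, 4.96 and 5.01 times in the labelled libraries, so the constitutive gene was the more abundant in every library.

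Of the synthases after the cyclooxygenases, Tbxas1 had separate groups, and Ptges and Hpgds did not. Tbxas1 (ENSMUSG00000029925, plus strand, chr6:38875404-39084585) held 1.45, 2.35 and 1.52 CPM in the controls and 3.14, 2.53 and 2.73 CPM in the labelled libraries, from 21, 39 and 23 and 42, 38 and 41 counts. Control 2 came nearest to the labelled libraries. Its 39 counts exceeded the 38 of labelled library 2, so the groups were separate in CPM and overlapped in raw counts. Tbxas1 had a log2 fold change of 0.65 (SE 0.27, 95% interval 0.012 to 1.28, unadjusted p = 0.0466, edgeR adjusted p = 0.722), and 0.51 to 0.90 on leaving out each library in turn. In limma on log2(FPKM + 1), where its FPKM lies far under the added 1, Tbxas1 had 0.13. Hipk2, on the opposite strand, shares 762 bases with Tbxas1 and had 9581 counts in all against 204. Hipk2 stood at 107.3 and 106.1 CPM in the 2 groups (log2 fold change -0.016, edgeR adjusted p = 0.986), and whether reads of it were counted for Tbxas1 was not tested.

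Hpgds (ENSMUSG00000029919, minus strand, chr6:65117293-65144908), the hematopoietic prostaglandin D synthase, was the most abundant of these synthases per gene length. Its controls held 63.9, 39.8 and 43.5 CPM and its labelled libraries 45.6, 49.8 and 46.6 CPM. Control 1 was again the highest library, by 0.62 over the other controls on the log2 scale, and Hpgds has a GC content of 42.6%. Its log2 fold change was -0.050 (95% interval -0.46 to 0.36, edgeR adjusted p = 0.967), 0.18 without control 1 (edgeR adjusted p = 0.312) and 0.076 with GC offsets (edgeR adjusted p = 0.732).

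Ptges (ENSMUSG00000050737, minus strand, chr2:30889471-30929863), the inducible prostaglandin E synthase, had 10, 18 and 16 counts in the controls and 14, 18 and 5 in the labelled libraries, or 0.692, 1.08 and 1.06 and 1.05, 1.198 and 0.333 CPM. Labelled library 3 was the lowest of the 6. The fitted log2 fold change of Ptges was -0.15 (95% interval -1.26 to 0.97, edgeR adjusted p = 0.967), and 0.25 without labelled library 3. At this depth a fall to 0.416 times the control level and a rise to 1.96 times it both lie inside the interval.

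The promoters of the 3 members whose labelled libraries all lay above the controls are shown beside that of Alox5. Each window holds the 250 bases before the RefSeq start (GRCm38.p6, plus strand, 5′ to 3′), at chr2:36230176-36230425 for Ptgs1, chr1:150099781-150100030 for Ptgs2 and chr6:38918736-38918985 for Tbxas1. The RefSeq start of Tbxas1 lies inside the longer gene of the count table. Capitals mark each match to the 9 motifs.
Ptgs1: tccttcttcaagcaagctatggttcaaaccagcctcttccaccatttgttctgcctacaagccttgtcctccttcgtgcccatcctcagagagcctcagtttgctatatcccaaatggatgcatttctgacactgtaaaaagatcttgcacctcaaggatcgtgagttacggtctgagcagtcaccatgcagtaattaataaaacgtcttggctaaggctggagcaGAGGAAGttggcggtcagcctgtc
Ptgs2: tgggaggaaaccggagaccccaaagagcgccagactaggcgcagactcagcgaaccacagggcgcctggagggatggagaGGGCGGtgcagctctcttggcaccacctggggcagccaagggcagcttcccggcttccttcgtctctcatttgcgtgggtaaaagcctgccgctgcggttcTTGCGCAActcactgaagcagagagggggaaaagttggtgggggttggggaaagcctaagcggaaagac
Tbxas1: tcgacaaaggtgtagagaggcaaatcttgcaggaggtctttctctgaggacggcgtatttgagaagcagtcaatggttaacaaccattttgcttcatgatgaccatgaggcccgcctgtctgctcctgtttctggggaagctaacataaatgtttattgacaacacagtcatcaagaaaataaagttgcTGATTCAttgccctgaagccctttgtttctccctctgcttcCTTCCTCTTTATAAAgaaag
Both strands were searched, and the letters of each motif found are given with its match.

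Ptgs1 had the PU.1 letters GAGGAAG at 24 to 18 bases before the start (10.6% of all windows hold these letters). Ptgs2 had a match to the C/EBP letters TTGNNCAA at 69 to 62 bases (5.65% of windows) and a GC box at 170 to 165 bases (32.7%). Tbxas1 had TATA box matches (TATAAA), overlapping each other on the 2 strands, at 13 to 8 and 11 to 6 bases (12.4%), a PU.1 match on the other strand at 20 to 14 bases and a match to the AP-1 letters TGANTCA at 61 to 55 bases (6.75%). Of the other members, Hpgds had a PU.1 match at 49 to 43 bases and Ptges GC boxes at 53 to 48 and 42 to 37 bases, while the windows of Lta4h, Ltc4s and the first start of Pla2g4a held no match. Another start of Pla2g4a had a TATA box match on the other strand at 200 to 195 bases. RefSeq windows were given for 9 of the 10, all but Alox5ap. The other 4 motifs, with no match in any member's window, were the CRE (TGACGTCA, in 1.55% of windows), the E-box (CACGTG, 6.02%), NF-kB (2.26%) and the interferon response element (2.98%). A match is a run of letters, and binding was not measured.

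**Figure D4:**
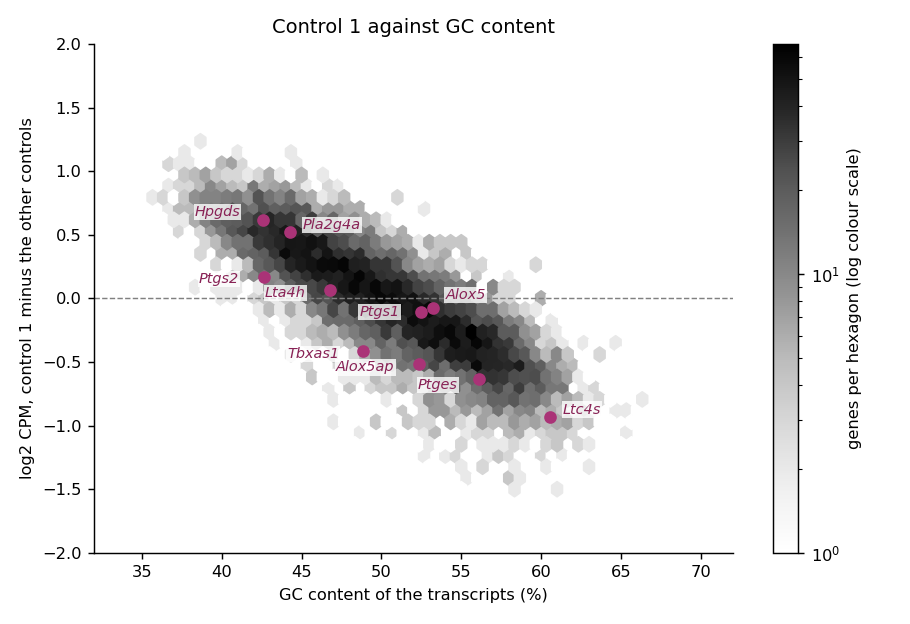
Log2 CPM of control 1 minus the other controls (vertical) against GC content of the transcripts in percent (horizontal), for 9510 protein-coding genes as hexagons, 13 of them outside the axes, and the 10 enzymes as named points. Hpgds and Pla2g4a, at 42.6% and 44.3% GC, lie above 0 and Ltc4s, at 60.6%, lies lowest of the 10. Genes of like GC content differ, with Hpgds at 0.62 and Ptgs2, also at 42.6%, at 0.17. Alox5 and Alox5ap, at 53.2% and 52.4%, lie at -0.076 and -0.52.

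The wider pathway was 118 other genes listed by role, of which 115 are in the table and 62 were tested. Of the 62, edgeR called 2 higher and 1 lower, where 1.01% of all tested genes were called higher and 0.136% lower. DESeq2 also called 2 higher and 1 lower, against 1.62% and 0.568% of all tested genes. An unadjusted p under 0.05 was reached by 4 higher and 3 lower, against 3.71% and 3.04% of all tested genes. The median log2 fold change of the 62 was -0.0070. In the leukotriene list (8 other genes tested) Mgst2 fell, while 0 were higher by edgeR, by DESeq2 or at an unadjusted p under 0.05. Mgst2 (ENSMUSG00000074604, plus strand, chr3:51660360-51682677) encodes a microsomal glutathione S-transferase that can also make leukotriene C4. Its controls held 48.1, 42.996 and 42.8 CPM and its labelled libraries 26.1, 25.2 and 30.5 CPM, without overlap. On the log2 scale Mgst2 changed by -0.71 (SE 0.12, edgeR adjusted p = 0.0341). The call held without control 1 and was lost on leaving out any of the other 5 libraries (edgeR adjusted p up to 0.266). A transcript model on the same strand, Gm37261, shares 1101 bases with Mgst2 and stood at 5.96 and 3.87 CPM in the 2 groups. Mgst3, of the same family, had a log2 fold change of -0.33 (edgeR adjusted p = 0.846), and -0.49 without control 1, where it passed (edgeR adjusted p = 0.000642). Without control 2 it was -0.15 (edgeR adjusted p = 0.66), no other library left out gave a call, and library weights in limma did (adjusted p = 0.00934).

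Hpgd (ENSMUSG00000031613, plus strand, chr8:56294585-56321043), which encodes the hydroxyprostaglandin dehydrogenase that inactivates prostaglandin E2, rose. It is the called gene of the breakdown and transport list (5 tested), where edgeR and DESeq2 called 0 lower and 0 had a lower value at an unadjusted p under 0.05. The controls held 18.05, 9.27 and 12.2 CPM and the labelled libraries 36.5, 38.001 and 39.5 CPM. Control 1, the highest control, stayed below the lowest labelled library. Mean levels were 13.2 ± 4.47 and 37.97 ± 1.498 CPM (SD, n = 3), a log2 fold change of 1.53 (SE 0.22, edgeR adjusted p = 0.0183), with 1.32 to 1.82 on leaving out each library in turn. The call held without control 1 or control 2 and was lost without control 3 or any of the labelled libraries (edgeR adjusted p up to 0.123). Zadh2, a prostaglandin reductase, stood at 21.7 ± 0.987 and 20.7 ± 0.303 FPKM in the 2 groups, above Hpgd in each control and below it in each labelled library (Hpgd means 7.75 and 22.4). The margin was smallest in labelled library 1, at 21.05 FPKM for Zadh2 and 21.47 for Hpgd. In CPM, which is not scaled by gene length, Zadh2 was above Hpgd in every library. Zadh2 had a log2 fold change of -0.073 (edgeR adjusted p = 0.944).

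Zfp36l1 (ENSMUSG00000021127, minus strand, chr12:80107754-80113013), an RNA-binding protein that promotes decay of transcripts with AU-rich elements, rose among the kinases and regulators (17 tested, 1 higher and 0 lower by edgeR and by DESeq2, with 2 higher, 1 lower, when an unadjusted p under 0.05 is taken). Its controls held 4.15, 8.19 and 7.66 CPM and its labelled libraries 15.8, 19.9 and 20.03 CPM, without overlap. On the log2 scale Zfp36l1 changed by 1.47 (SE 0.25, edgeR adjusted p = 0.04), and the call was lost on leaving out any library but control 1 (edgeR adjusted p up to 0.219). Nfkb1, an NF-kB subunit, had a log2 fold change of 0.25 (unadjusted p = 0.0253, edgeR adjusted p = 0.538). Anxa1, an annexin, had -0.44 (unadjusted p = 0.0343, edgeR adjusted p = 0.625), and passed with GC offsets at -0.32 (edgeR adjusted p = 0.0303). It did not pass without control 1, at -0.22 (edgeR adjusted p = 0.0898), with library weights in limma, at -0.22 (adjusted p = 0.0593), or with GC offsets and the replicate block (edgeR adjusted p = 0.0846). Of the 6 other synthase genes tested, edgeR and DESeq2 called 0, and Akr1b8, an aldo-keto reductase, was the gene with an unadjusted p under 0.05, with a log2 fold change of -0.42 (edgeR adjusted p = 0.261). Akr1b8 passed without control 1 (edgeR adjusted p = 0.000597) and with GC offsets (edgeR adjusted p = 0.0207), and did not when any other single library was left out (edgeR adjusted p up to 0.981). Akr1b8 also passed with library weights in limma (adjusted p = 0.000865) and with GC offsets and the replicate block (edgeR adjusted p = 0.0424). Ptges3, a cytosolic prostaglandin E synthase and the most abundant of these 6 per length, stood at 131.7 ± 42.8 and 119.7 ± 7.12 FPKM in the 2 groups (SD, n = 3).

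Among phospholipases and genes of arachidonate release or reuptake (19 tested), edgeR and DESeq2 called 0, and Pla2g15, a lysosomal phospholipase, was the gene with an unadjusted p under 0.05 (log2 fold change 0.36, edgeR adjusted p = 0.711, and 0.21 without control 1). Of 18 receptor genes listed, 5 were tested, and edgeR, DESeq2 and an unadjusted p under 0.05 each gave 0. Cysltr1, a cysteinyl leukotriene receptor, was the most abundant of them per gene length, at 8.05 ± 3.87 FPKM in control and 7.36 ± 0.912 in the labelled libraries (SD, n = 3). Ptger4, a prostaglandin E2 receptor, followed at 2.804 ± 0.271 and 2.97 ± 0.246 FPKM. Of 8 epoxygenase branch genes, 2 were tested, with 0 by edgeR, by DESeq2 and at an unadjusted p under 0.05. The profile most like that of Alox5 over the 6 libraries, among 8638 other protein-coding genes with a mean of at least 10 CPM, was that of Srgap3 (Pearson r = 0.999), followed by Anpep (0.994) and Rab31 (0.991). These values share the libraries and the difference between the groups.

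**Figure D5:**
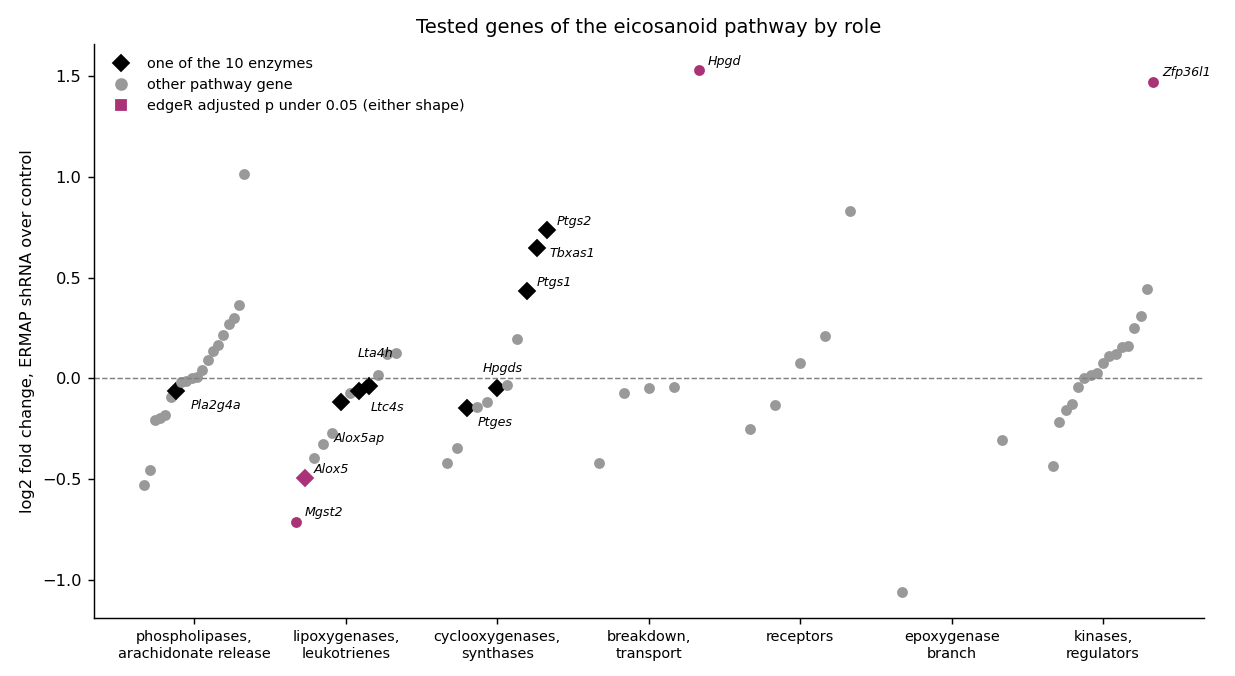
Log2 fold change (labelled libraries over controls) of each tested pathway gene, spread sideways within its role for legibility. Diamonds are the 10 enzymes, circles other genes, and purple marks an edgeR adjusted p under 0.05: Alox5 at -0.50, Mgst2 at -0.71, Hpgd at 1.53 and Zfp36l1 at 1.47.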

How the data were processed

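For 54532 genes in 6 libraries the authors deposited raw read counts and FPKM values, with gene names, lengths and coordinates, and the FPKM mean of each group. The submitters' processing notes name HISAT2 and mm10, and neither the counting program nor its strand setting or annotation release was given in the sources used. Each deposited FPKM is a count over gene length and a library constant that lies within -0.154% to 1.196% of the library total. Columns name groups and numbers, and could not be tied to single samples, so numbers are names.

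Counts of the whole table were tested with edgeR 4.0.16 in R 4.3.3 (quasi-likelihood, robust, TMM, filterByExpr at 10 counts) with Benjamini-Hochberg adjustment and a threshold of 0.05. SE and 95% intervals come from this fit. The fit was also run on simulated counts for 12316 genes. It picked up 28.1% of the differences built in at a factor of 1.5, 64.3% at a factor of 2 and 88.9% at a factor of 4. False calls came to 7.03%, with the threshold at 0.05. A gene that did not pass may therefore still differ by a factor near 1.5. GC content comes from GENCODE vM21 transcripts, for 99.9% of tested genes. Alternatives were DESeq2 1.42.0, limma 3.58.1 (voom, library weights, log2(FPKM + 1) and log2(FPKM + 0.1)), other scaling and filters, GC offsets, a replicate block, and each library left out. Within each group, libraries differed by more than sampling noise (chi-square per degree of freedom 3.35 to 67.2). The 10 members and all lists were chosen with earlier results of these data known. The rule for named genes took the members, Ermap, pathway genes that were called or had an unadjusted p under 0.05, the 2 other genes of each list with the highest mean FPKM, and the 3 profiles closest to Alox5. It let uncalled pathway genes be left out, and not all of the abundant ones are named. Ratios and overlapping genes were picked after their values were seen.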

Additional observations from a re-analysis of the deposited data

How the results depend on the processing

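Against 126 genes higher and 17 lower, DESeq2 gave 202 and 71, keeping low counts 158 and 32, unfiltered log2(FPKM + 1) 81 and 5, GC offsets 253 and 128, library weights 487 and 430, and leaving out each library 73 to 342 and 3 to 280. Library weights called 1 of the 10 enzymes higher (Ptgs1). The 1 called lower, Alox5, became 0 with log2(FPKM + 0.1) (adjusted p = 0.0502 in limma), 0 with unfiltered log2(FPKM + 1) (0.103), and 0 to 2 on leaving out each library. Alox5 was below 0 in all 19 alternatives and kept its call in 11. Of the other pathway genes, the 2 higher became 1 with log2(FPKM + 0.1), 0 with unfiltered log2(FPKM + 1) and 0 to 2 on leaving out each library. The 1 lower became 0 with unfiltered log2(FPKM + 1), 3 with GC offsets, 3 with library weights and 0 to 3 on leaving out each library. Signs of uncalled members turned with GC offsets and with library weights for Lta4h (0.00016 and 0.042), Pla2g4a (0.033 and 0.083) and Hpgds (0.076 and 0.12), and with log2(FPKM + 0.1) for Ltc4s (0.000997). Leaving out each library gave -0.28 to 0.024 for Alox5ap, -0.32 to 0.10 for Ltc4s, -0.18 to 0.12 for Pla2g4a, -0.48 to 0.25 for Ptges and -0.19 to 0.18 for Hpgds. Leaving out a library leaves fewer samples, and otherwise the cause was not tested. Among uncalled members with few counts, library weights moved Ltc4s to -0.34 and Ptges to -0.62, and log2(FPKM + 1) moved Ptges to -0.028. The filter on mean CPM left out Ptges and Ermap. Low counts limit Ptges, Tbxas1, Ltc4s and Ptgs2, with 5 to 87 counts per library.

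The replicate numbers did not pair the libraries: deviations of same-numbered libraries from their group means correlated at -0.268, -0.505 and 0.39 over 10043 genes, and number 3 was the single number whose libraries each correlated best with their own number. With the replicate block, 81 genes were higher and 3 lower, 0 of the 10 enzymes were lower (Alox5 -0.50, edgeR adjusted p = 0.243), and 1 other pathway gene was higher and 0 lower. With the replicate block and GC offsets, 67 genes were lower, Alox5 was called (-0.54, edgeR adjusted p = 0.00617), 2 other pathway genes were lower, and Lta4h, Pla2g4a and Hpgds stood at 0.0044, 0.034 and 0.078.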
